A study of Mus musculus with 10 samples.

Results

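The enzymes of serine synthesis and of folate-bound carbon transfer were followed in the mouse jejunum with and without intestinal Pcyt1a. The set held 10 genes, picked by name for their place in the pathway, with earlier results of these data known: Phgdh, Psat1 and Psph for serine synthesis, Shmt2, Mthfd2, Mthfd1l and Aldh1l2 for the mitochondrial folate steps, and Shmt1, Mthfd1 and Aldh1l1 for the cytosolic ones. All 10 were measured, each by 1 probe set, among 22180 genes on the array. The 5 knockout arrays came from Pcyt1a LoxP/LoxP;VilCreERT2 mice and the 5 control arrays from Pcyt1a LoxP/LoxP mice without Cre. VilCreERT2 is a Cre recombinase switched on by tamoxifen and driven by the villin promoter, so that it acts in epithelial cells of the gut, and Pcyt1a encodes the rate-limiting enzyme of phosphatidylcholine synthesis. All mice were females of 10 to 12 weeks that carried the floxed alleles, were given tamoxifen for 5 days, ate high-fat food for 3 days, were fasted overnight and then ate the same food for 2 hours. A piece of 3 cm from the middle of the small intestine was used whole, so cells in which villin is silent were included, and Cre was present in the knockout group alone, so an effect of Cre and loss of Pcyt1a cannot be told apart. Separate animals are not stated for the arrays, so p-values cover the variation among these arrays, part of which may be technical.

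Cells make serine from the glycolytic intermediate 3-phosphoglycerate in a short chain of reactions run by PHGDH, PSAT1 and PSPH. Serine then gives up a carbon unit to tetrahydrofolate and becomes glycine, in mitochondria through SHMT2 and in the cytosol through SHMT1. The loaded folates are interconverted by enzymes of the MTHFD family and feed purine, thymidylate and methionine synthesis, while ALDH1L1 and ALDH1L2 burn the carbon unit to CO2. Several of these genes are known ATF4 targets (ATF4 is the main effector of the integrated stress response). Some of the folate enzymes are prominent in dividing cells, which in the intestine lie in the crypts.

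The upstream sequences of 4 genes are shown first. Psat1 was the member that passed the test. Shmt2 and Shmt1 were the pair, of the 3 compared, whose members differed most clearly from each other in response. Phgdh, which did not pass, held a motif match in this stretch. Each sequence is the 250 bases before the RefSeq start (build GRCm38.p6). It is read 5′ to 3′ on the gene's strand, which was the minus strand for all 4. Capitals mark matches of the 3 motifs searched, and the runs without capitals hold none.
Psat1 upstream, chr19:15925060-15925309: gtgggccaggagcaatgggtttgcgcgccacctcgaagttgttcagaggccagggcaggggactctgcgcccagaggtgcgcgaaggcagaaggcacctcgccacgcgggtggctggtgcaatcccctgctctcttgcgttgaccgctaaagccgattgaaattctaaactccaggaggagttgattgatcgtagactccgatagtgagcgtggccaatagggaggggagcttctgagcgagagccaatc
Shmt2 upstream, chr10:127522445-127522694: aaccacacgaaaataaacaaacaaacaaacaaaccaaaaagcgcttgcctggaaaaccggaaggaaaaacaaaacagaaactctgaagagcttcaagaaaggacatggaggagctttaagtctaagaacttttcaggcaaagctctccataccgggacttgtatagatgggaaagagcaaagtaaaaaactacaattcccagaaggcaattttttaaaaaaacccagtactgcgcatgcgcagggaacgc
Shmt1 upstream, chr11:60811266-60811515: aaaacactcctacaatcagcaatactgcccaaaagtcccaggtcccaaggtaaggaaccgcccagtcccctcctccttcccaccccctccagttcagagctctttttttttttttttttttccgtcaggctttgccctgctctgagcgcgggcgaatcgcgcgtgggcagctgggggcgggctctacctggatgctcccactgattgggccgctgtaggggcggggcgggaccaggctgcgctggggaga
Phgdh upstream, chr3:98339970-98340219: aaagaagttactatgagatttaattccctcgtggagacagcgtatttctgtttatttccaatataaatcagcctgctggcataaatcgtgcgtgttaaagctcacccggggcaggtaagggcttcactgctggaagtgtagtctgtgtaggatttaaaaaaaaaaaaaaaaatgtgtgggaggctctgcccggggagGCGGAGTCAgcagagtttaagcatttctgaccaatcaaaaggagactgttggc

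The window searched ran from 250 bases before to 50 after each start, on both strands, and was matched by symbol for 9 of the 10 genes, with a second start for Psat1. TGATGNAA, the core of the element bound by ATF4 with C/EBP partners, was in 0 of these 10 windows and in 4.0% of all 32851 RefSeq windows. CACGTG, the E-box bound by MYC, was also in 0 of 10, against 7.2% of all windows. TGACNNNGC, the core of the antioxidant response element, was in the windows of Phgdh, 53 bases upstream of the start, and of Psph, just past the start, against 12.4% of all windows. These are matches of letters in short windows and say nothing of elements elsewhere in the genes.

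Before the members, the arrays themselves were checked. Pcyt1a was lower in every knockout array, at 7.51 ± 0.16 against 9.22 ± 0.20 on the log2 scale (mean ± SD, n = 5 in each group), 3.27-fold lower (limma adjusted p = 6.51e-05), and an exact permutation test, two-sided, gave p = 0.00794, its lower limit with 5 arrays a group. Whether its probes lie in the deleted part is not given in the sources used here. Enterocyte markers were bright in both groups, from a log2 intensity of 11.03 for Treh, in knockout, to 13.84 for Apoa4, in control. Within the set, knockout 5 stood apart: it was the lowest of the 5 knockouts in 8 of 10 genes, and knockout 4 was the highest in 8. Among controls, control 3 was the highest in 8 of 10.

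Knockout means were higher than control means for all 10 genes, where 49.9% of all genes were higher. The test was limma over all 22180 genes with Benjamini-Hochberg adjustment, and a gene was called at an adjusted p under 0.05. On that test 1 of the 10 rose, Psat1, and 0 fell, where 0.343% of all genes were called, 0.171% of them upward and 0.171% downward. At an unadjusted p under 0.05, 7 of the 10 were higher, against 5.82% of all genes, and 0 were lower, against 6.25%. Knockout and control arrays did not overlap in 3 genes, Psat1, Psph and Aldh1l1, all higher, where 2.77% of all genes had no overlap, 1.20% higher and 1.56% lower. The median difference of the 10 was 0.51 on the log2 scale, that of all genes was 0.00, and the members ran from 0.17 for Shmt1 to 1.89 for Psat1.

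**Figure D1:**
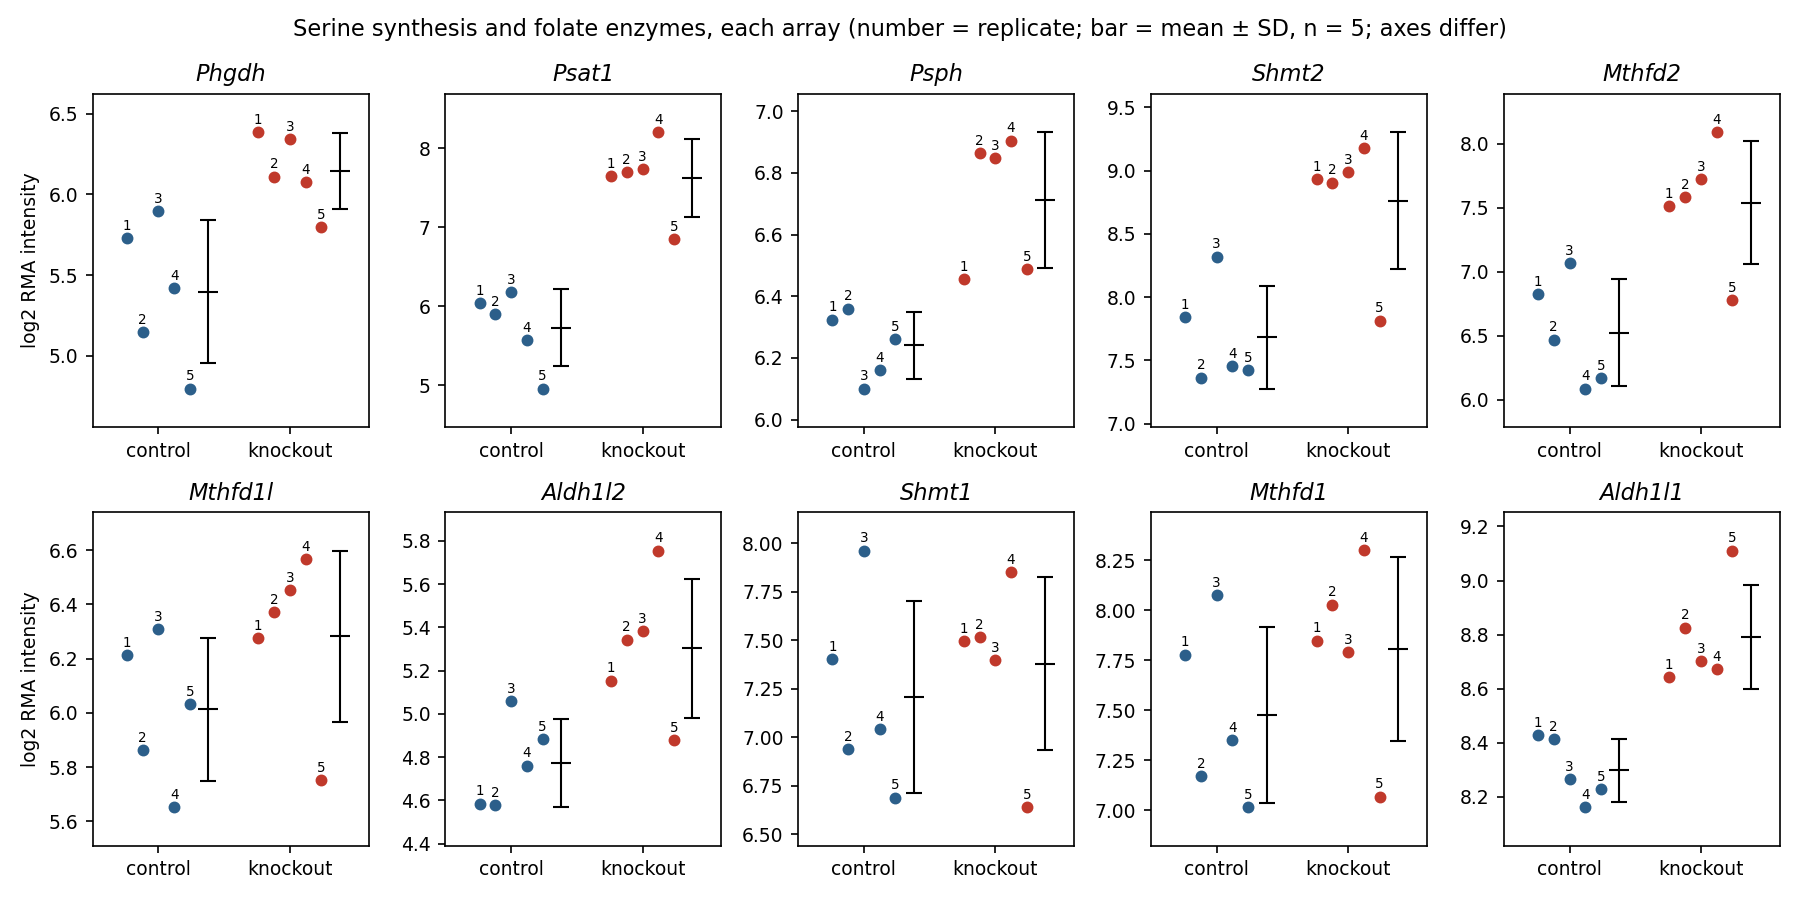
Log2 RMA intensity (vertical axis, scaled separately in each panel) of the 10 enzymes in each of 5 control (blue) and 5 knockout (red) arrays, with replicate numbers and the mean ± SD (n = 5) beside the points. Psat1, Psph and Aldh1l1 show no overlap between groups, and knockout 5 is the lowest knockout in 8 panels.

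In the serine synthesis branch, all 3 genes had higher means in knockout, and Psat1 rose. Psat1 encodes phosphoserine aminotransferase, which takes the amino group of glutamate to make phosphoserine. Its log2 intensity was 7.65, 7.70, 7.74, 8.21 and 6.85 in knockouts 1 to 5 and 6.04, 5.90, 6.18, 5.58 and 4.96 in controls 1 to 5. Every knockout array lay above every control array, with knockout 5 nearest to the controls and control 5 farthest below. Knockout exceeded control by 1.89 (SE 0.26, 95% confidence interval from 1.33 up to 2.45) with a limma adjusted p of 0.0154, or by 3.72-fold, the 9th highest increase of all genes and the 11th smallest p. The call was lost without knockout 2 (1.88, adjusted p = 0.0606) and without control 4 (1.86, adjusted p = 0.0539), and also with the mean of a list of ileum genes as a covariate (2.10, adjusted p = 0.308).

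Phgdh encodes phosphoglycerate dehydrogenase, which opens the pathway. Its log2 intensity was 6.39, 6.11, 6.34, 6.08 and 5.80 in knockouts 1 to 5 and 5.73, 5.15, 5.90, 5.42 and 4.80 in controls 1 to 5. The groups overlapped only in that control 3 lay above knockout 5. The difference was 0.75 (SE 0.19, adjusted p = 0.132 by limma), 1.68-fold, and it did not pass. Psph encodes the phosphatase that releases free serine. Its values were 6.45, 6.86, 6.85, 6.90 and 6.49 in the knockouts and 6.32, 6.36, 6.10, 6.16 and 6.26 in the controls, so knockouts 1 and 5 lay close above the highest control. The difference of 0.47 (SE 0.11, limma adjusted p = 0.0957), 1.39-fold, did not pass either. With each array left out in turn it passed in 1 of 10 fits, without knockout 1 (0.54, adjusted p = 0.0385), and the adjusted p was 0.0838 to 0.253 in the other 9.

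In the mitochondrial folate branch, the means of all 4 genes were higher in knockout and none passed the test. Shmt2 encodes the mitochondrial serine hydroxymethyltransferase, which moves a carbon unit from serine to tetrahydrofolate. Its log2 intensity was 8.93, 8.91, 8.99, 9.18 and 7.81 in knockouts 1 to 5 and 7.84, 7.36, 8.32, 7.45 and 7.42 in controls 1 to 5. Knockouts 1 to 4 lay above all controls, while knockout 5 lay below controls 1 and 3. The difference was 1.08 (SE 0.25, limma adjusted p = 0.0948), 2.12-fold. With each array left out in turn it passed in 1 of 10 fits, without knockout 5 (1.32, SE 0.18, adjusted p = 0.0154), and the adjusted p was 0.0664 to 0.238 in the other 9.

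Mthfd2 encodes the mitochondrial methylenetetrahydrofolate dehydrogenase and cyclohydrolase, a form common in embryonic and dividing cells. Its values were 7.52, 7.58, 7.73, 8.09 and 6.78 in the knockouts and 6.83, 6.47, 7.07, 6.09 and 6.17 in the controls. As for Shmt2, knockout 5 lay below controls 1 and 3 and the other knockouts above every control. The difference was 1.02 (SE 0.24, limma adjusted p = 0.0967), 2.02-fold. It too passed in 1 of 10 such fits, without knockout 5 (1.21, SE 0.20, adjusted p = 0.0395), against 0.0746 to 0.235 in the other 9.

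Aldh1l2, the mitochondrial formyltetrahydrofolate dehydrogenase, lay between 4.88 and 5.75 in knockout arrays and between 4.58 and 5.06 in control arrays. It was the dimmest of the 10 probe sets, brighter than 32.6% of all genes, and its difference of 0.53 (SE 0.15, limma adjusted p = 0.173) did not pass. Mthfd1l, the mitochondrial formyltetrahydrofolate synthetase, which releases formate, lay between 5.75 and 6.57 in knockout arrays and between 5.65 and 6.31 in control arrays. Its groups overlapped widely, and the difference was 0.27 (SE 0.16, 95% confidence interval from -0.08 up to 0.62), with a limma adjusted p of 0.555.

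**Figure D2:**
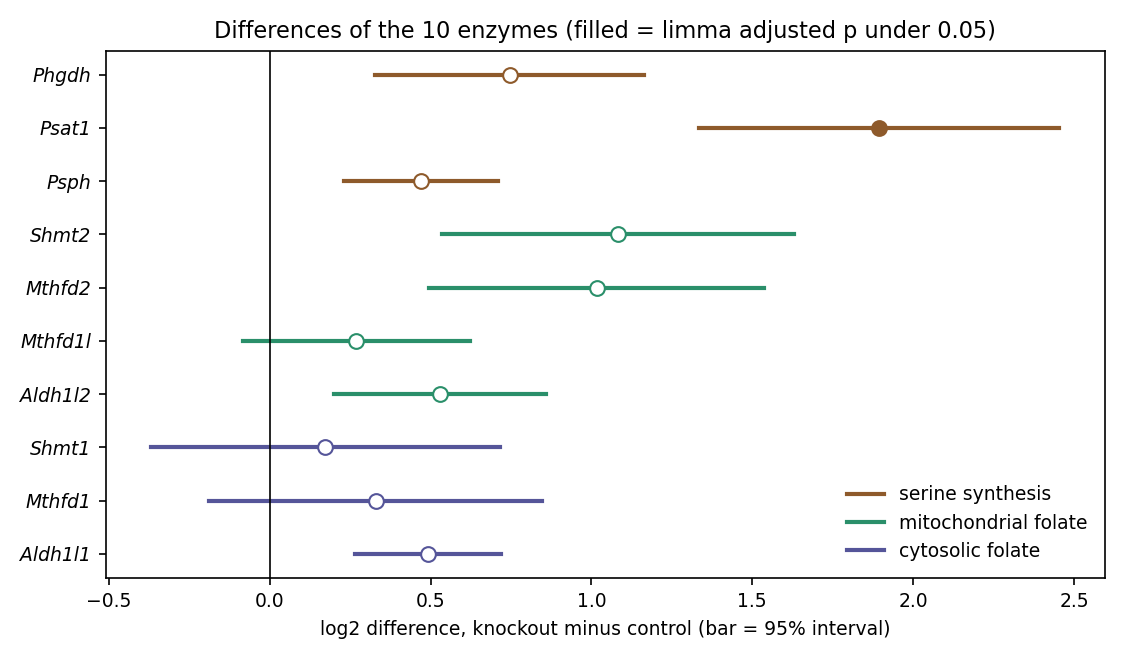
Log2 difference, knockout minus control (horizontal axis), of the 10 enzymes with 95% confidence intervals from limma, coloured by branch. The filled point, Psat1 at 1.89, passed the test over all genes, and the intervals of Mthfd1l, Shmt1 and Mthfd1 include 0.

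In the cytosolic folate branch the means of all 3 genes were higher in knockout and none passed the test. Shmt1, the cytosolic counterpart of Shmt2, was at 7.49, 7.52, 7.40, 7.85 and 6.64 in knockouts 1 to 5 and at 7.40, 6.94, 7.96, 7.04 and 6.69 in controls 1 to 5. The highest array of all 10 was a control and the lowest a knockout. The knockout mean was 0.17 higher (SE 0.25, 95% confidence interval from -0.37 up to 0.71), with a limma adjusted p of 0.842. Mthfd1, the cytosolic enzyme that joins the dehydrogenase, cyclohydrolase and synthetase activities in a single protein, lay between 7.07 and 8.30 in knockout arrays and between 7.01 and 8.07 in control arrays. The knockout mean was 0.33 higher (SE 0.24, 95% confidence interval from -0.19 up to 0.85), with a limma adjusted p of 0.637.

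Aldh1l1, the cytosolic formyltetrahydrofolate dehydrogenase, had an array order unlike that of most members, as had Psph. Its log2 intensity was 8.64, 8.83, 8.70, 8.67 and 9.11 in knockouts 1 to 5 and 8.43, 8.41, 8.26, 8.16 and 8.23 in controls 1 to 5. All knockouts lay above all controls, and knockout 5, the lowest knockout for most of the set, was the highest here. The difference was 0.49 (SE 0.10, limma adjusted p = 0.0728), 1.41-fold, and did not pass over all 10 arrays. With an array left out it passed in 1 of 10 fits, without knockout 1 (0.53, adjusted p = 0.0459), against 0.0952 to 0.194 in the other 9.

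Shmt2, Mthfd1l and Aldh1l2 were then each set against a cytosolic partner within each array. A shift shared by both genes cancels in such a difference. This comparison was chosen after the values were seen, for 3 pairs, and each pair is centred on its own mean over the 10 arrays because levels of different probe sets cannot be compared. For Shmt2 minus Shmt1 the centred values were 0.51, 0.46, 0.66, 0.40 and 0.24 in knockouts 1 to 5 and -0.49, -0.51, -0.57, -0.52 and -0.19 in controls 1 to 5. The groups did not overlap, knockout 5 included. The pair differed by 0.91 (SE 0.10) between knockout and control, with p = 0.00794 in a two-sided exact permutation test, its lower limit here, and 0.0238 when adjusted over the 3 pairs. With each array left out in turn the difference stayed between 0.86 and 0.98. The other pairs gave no such separation: Mthfd1l minus Mthfd1 differed by -0.06 (SE 0.17, exact permutation p = 0.762, adjusted 0.913) and Aldh1l2 minus Aldh1l1 by 0.04 (SE 0.25, exact permutation p = 0.913, adjusted 0.913). The sign of these last differences turned in some of the alternatives. Mthfd2 was not paired, although the enzyme of Mthfd1 also holds its dehydrogenase and cyclohydrolase activities. Knockout exceeded control by 1.02 for Mthfd2 and by 0.33 for Mthfd1. The pairs formed therefore do not show whether the separation was confined to Shmt2 and Shmt1.

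**Figure D3:**
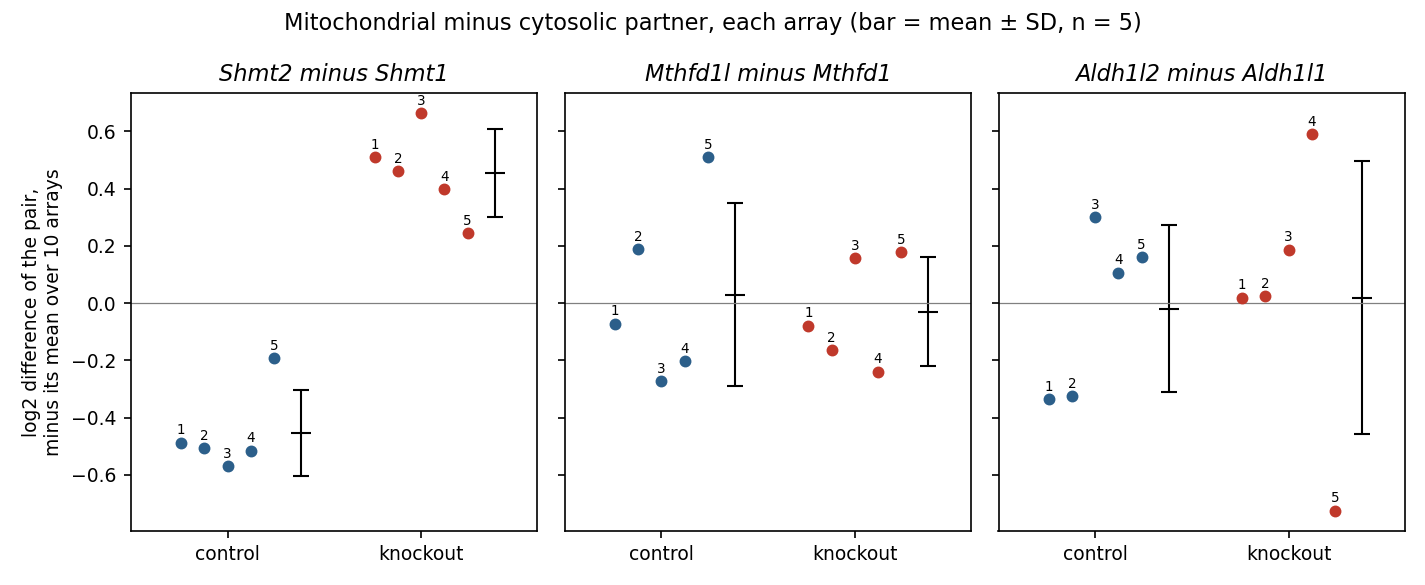
Log2 difference between the mitochondrial gene and its cytosolic partner in each array, centred on the pair's mean over 10 arrays (vertical axis, shared), for 5 control (blue) and 5 knockout (red) arrays with replicate numbers and mean ± SD (n = 5). Shmt2 minus Shmt1 lies at 0.24 or above in knockout and at -0.19 or below in control, while the groups overlap in the other pairs.

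Most members moved with genes of cell division within the groups. In 16 measured proliferation genes (of 17 listed), 13 had higher and 3 lower means in knockout, where 49.9% of all genes were higher. In this list 0 passed, and the median difference was 0.50. Birc5 was at 0.86 (SE 0.19), Aurka at 0.64, Plk1 at 0.88 and Cdc20 at 0.68. The 3 lower genes were Mcm2 at -0.42 (SE 0.14), Pcna at -0.11 and Mcm6 at -0.02. The mean of this list, each gene centred over the 10 arrays, ran from -0.45 in knockout 5 to 0.63 in knockout 4 and from -0.67 in control 5 to 0.45 in control 3. In whole tissue, fewer cells of a type and less RNA per cell cannot be told apart. Each group's mean was then subtracted. Over the 10 arrays, the correlation with the proliferation list mean was r = 0.997 for Shmt1 and 0.972 for Mthfd1. It was 0.948 for Shmt2, 0.926 for Mthfd2, 0.903 for Psat1, 0.808 for Mthfd1l and 0.788 for Phgdh. For Aldh1l2 it was 0.679, for Psph 0.190 and for Aldh1l1 -0.48. Spearman's rho was 0.964 for Shmt1 and Mthfd1, 0.915 for Shmt2, 0.867 for Mthfd2 and 0.794 for Mthfd1l. By rho, Psat1 was at 0.77, Phgdh at 0.758, Aldh1l2 at 0.539, Psph at 0.127 and Aldh1l1 at -0.37. These are descriptions, since the arrays share their normalization and the genes their tissue piece.

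With the proliferation list mean as a covariate, Psat1 remained higher by 1.44 (SE 0.15, limma adjusted p = 0.00444). Shmt2 was at 0.61 (SE 0.12, adjusted p = 0.0469) and Aldh1l1 at 0.57 (SE 0.11, adjusted p = 0.04999), both just inside the threshold in that fit, in which 134 genes were called. Phgdh was at 0.46 (SE 0.15), Mthfd2 at 0.58 (SE 0.13, adjusted p = 0.0716), Aldh1l2 at 0.34 (SE 0.14) and Mthfd1l at 0.03 (SE 0.13), none of them past it, nor was Psph at 0.44 (SE 0.13, adjusted p = 0.151). Shmt1 and Mthfd1 turned to -0.32 (SE 0.07, adjusted p = 0.0909) and -0.12 (SE 0.10), so the direction of these cytosolic genes depended on the covariate.

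Genes of the ileum also separated most of the arrays. Among them, Fgf15 was at 1.16 (SE 0.26), Fabp6 at 3.89 (SE 0.97), Slc51a at 0.67 and Clec2h at 0.35. Of the 7 measured ileum genes (of 8 listed), 7 had higher means in knockout, against 49.9% of all genes, and 0 passed. Their list mean lay between 0.67 and 1.14 in knockouts 2 to 5, at -0.61 in knockout 1 and between -0.83 and -0.18 in controls. Knockout 1, which lay among the controls for this list, was above all controls for Psat1, Phgdh, Shmt2, Mthfd2, Aldh1l2, Psph and Aldh1l1, though for Psph and Aldh1l1 it was the lowest knockout. For Mthfd1l, Shmt1 and Mthfd1 it lay within the range of the controls. With the ileum list mean as a covariate, Psat1 was at 2.10 (SE 0.42), Shmt2 at 1.55 (SE 0.38) and Phgdh at 1.14 (SE 0.28). The differences of Psph, at 0.27 (SE 0.17), and Aldh1l1, at 0.28 (SE 0.15), were smaller than without the covariate. Mthfd2 was at 1.25 (SE 0.39), Aldh1l2 at 0.58 (SE 0.25), Mthfd1l at 0.44 (SE 0.26), Shmt1 at 0.55 (SE 0.39) and Mthfd1 at 0.64 (SE 0.38). In that fit 0 of the 10 and 2 of all genes were called (adjusted p = 0.308 for Psat1).

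**Figure D4:**
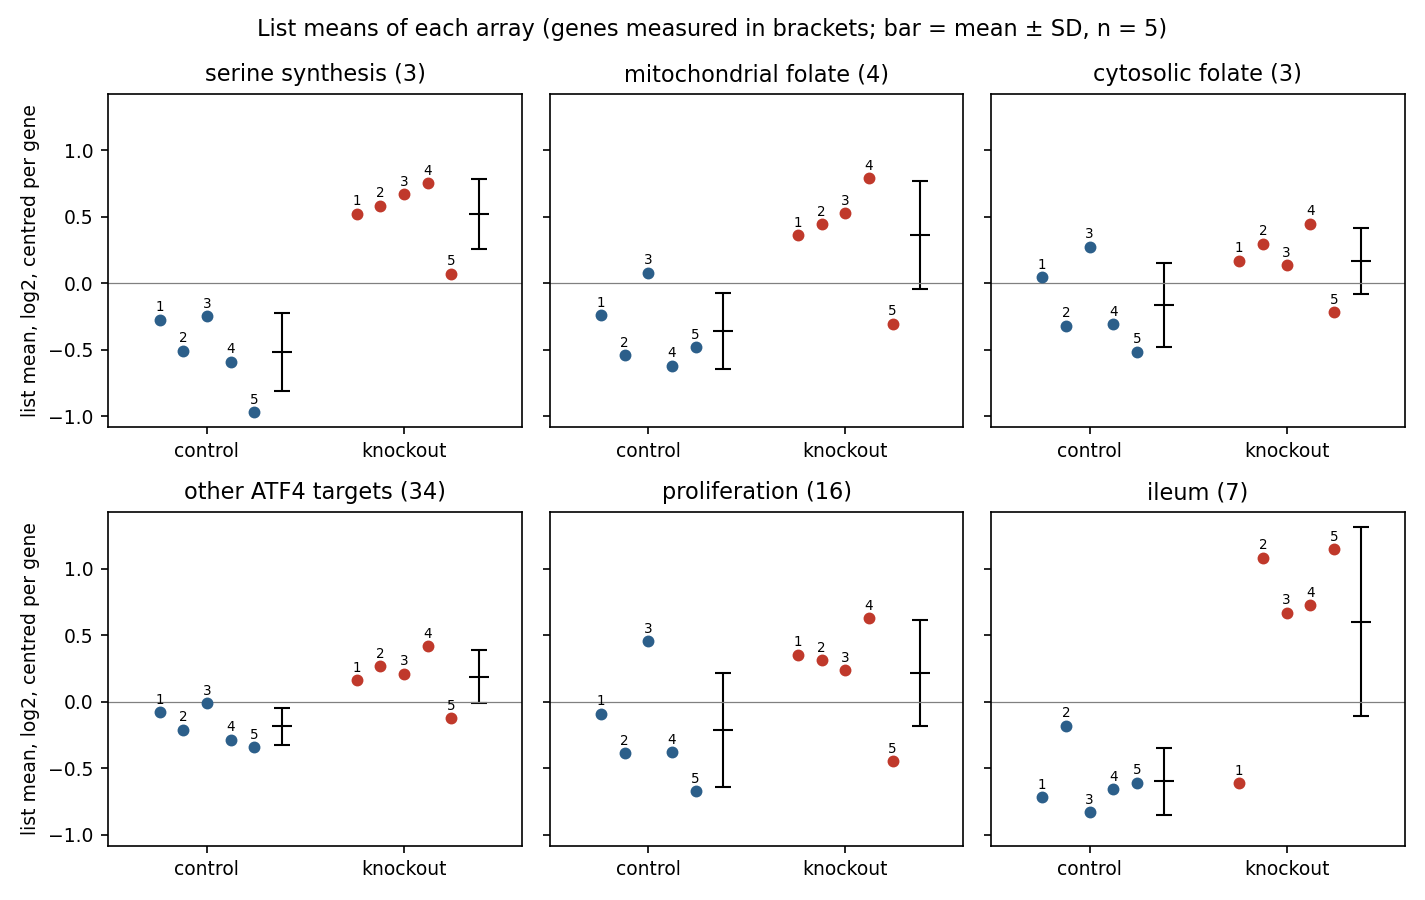
Mean of each gene list in each array (log2 intensity, each gene centred over the 10 arrays, vertical axis shared), for 5 control (blue) and 5 knockout (red) arrays with replicate numbers and mean ± SD (n = 5). Serine synthesis shows no overlap between groups. The mitochondrial folate, cytosolic folate, ATF4 target and proliferation lists overlap, and knockout 1 lies among the controls in the ileum list.

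The other markers were spread as follows, where 49.9% of all genes had higher means, 0.171% were called upward and 0.171% downward. Stem cell genes were higher in 5 of 8 with 0 called, and Paneth cell genes in 5 of 6 with 0 called, and the Paneth list mean lay between -0.66 and 0.86 in knockout arrays and between -2.13, in control 5, and 0.85 in control arrays. Mature enterocyte genes were lower in 9 of 11 and goblet cell genes in 6 of 7, with 0 called in either. Enteroendocrine genes were lower in 8 of 8, with Gip and Sst called, and tuft cell genes in 6 of 6, with Siglecf called. Genes of the proximal intestine were lower in 5 of 7, immune cell genes in 6 of 8 and pancreas and liver genes in 5 of 7, stroma and muscle genes were higher in 6 of 10, and 0 were called in these 4 lists. The part of these cell types in the serine and folate genes was not tested beyond the proliferation and ileum lists.

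Further folate and methyl-group genes were counted beside the set. Of 36 measured (of 40 listed), 23 had higher and 13 lower means, where 49.9% of all genes were higher, 0 passed, and the median difference was 0.08. The member with the smallest p was Slc46a1, the proton-coupled folate transporter that takes up dietary folate in the proximal small intestine. It was at 10.87, 7.20, 8.39, 7.32 and 7.09 in knockouts 1 to 5 and at 9.57, 9.23, 10.16, 10.41 and 11.34 in controls 1 to 5. Knockouts 2 to 5 lay below all controls and knockout 1, the array without raised ileum genes, lay above 4 of them, and the difference of -1.97 (SE 0.65, limma adjusted p = 0.249) did not pass. Next came Fpgs, the enzyme that adds glutamates to folate (0.33, SE 0.12), Atic, of purine synthesis (0.62, SE 0.25), and Mat1a, which makes S-adenosylmethionine (0.27, SE 0.11), with adjusted p from 0.301 to 0.376.

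Genes that carry or consume serine and glycine gave 8 higher and 6 lower of 14 measured (of 19 listed), where 49.9% of all genes were higher, and 0 passed. Slc1a4, a neutral amino acid transporter that carries serine, was at 6.90, 6.86, 7.14, 7.13 and 6.36 in knockouts 1 to 5 and at 6.53, 6.18, 6.37, 5.92 and 5.94 in controls 1 to 5, a difference of 0.69 (SE 0.16, limma adjusted p = 0.0959). Its knockout 5 was again the lowest and lay among the controls. Sptlc2, a subunit of serine palmitoyltransferase, which joins serine to palmitoyl-CoA at the entry to sphingolipid synthesis, lay between 11.01 and 11.35 in knockout arrays and between 10.73 and 10.92 in control arrays without overlap, a difference of 0.36 (SE 0.09, adjusted p = 0.0992). The amino acid transporters Slc38a1 and Slc1a5 were at 0.43 (SE 0.17) and 0.65 (SE 0.25).

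The list of ATF4 targets outside the set, which held Atf4 itself, had 34 measured genes (of 37 listed). Against 0.171% of all genes called upward and 0.171% downward, 0 of the 34 fell and 4 rose. They were Slc7a11, the cystine transporter (1.79, SE 0.26, limma adjusted p = 0.0185), Chac1, which degrades glutathione (0.96, SE 0.15, adjusted p = 0.0264), Eif4ebp1, a repressor of cap-dependent translation (0.87, SE 0.13, adjusted p = 0.0185), and Atf5, a transcription factor (0.63, SE 0.10, adjusted p = 0.0235). Means were higher for 28 of the 34, against 49.9% of all genes. The median difference was 0.32, and it was 0.13 with the proliferation covariate and 0.36 with the ileum covariate. Atf4 itself was at 0.17 (SE 0.12, adjusted p = 0.614), and the target genes Ddit3 and Trib3 were at 0.15 and -0.10. Asns, asparagine synthetase, lay between 7.91 and 9.23 in knockout arrays and between 6.84 and 7.94 in control arrays. Its arrays stood in an order like that of Shmt2 and Mthfd2, with knockout 5 just below control 3, and its difference was 1.31 (SE 0.25, adjusted p = 0.0521).

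Among 6 measured genes of the kinases and phosphatase subunits that act on eIF2alpha (of 7 listed), 0 passed. Eif2ak3, the endoplasmic reticulum stress kinase PERK, was at -0.52 (SE 0.12, limma adjusted p = 0.0853), Eif2ak2, the double-stranded RNA kinase PKR, at 0.53 (SE 0.15, adjusted p = 0.168), the phosphatase subunit Ppp1r15b at 0.08 and Eif2ak4, the amino acid sensor GCN2, at -0.04. Among 9 measured regulators linked to serine metabolism and growth (of 10 listed), 0 passed, with the demethylase Kdm4c at -0.24 (SE 0.08), the p53 ligase Mdm2 at -0.56 (SE 0.19), Myc at 0.52 (SE 0.25) and its partner Max at 0.14. The Myc arrays overlapped, at 7.32 to 8.47 (knockout) and 7.22 to 8.33 (control).

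The genes outside the set whose pattern was most like that of Psat1 were sought over the 10 arrays after each group's mean was subtracted. The closest 5 by Pearson's r were Knstrn (0.983), Utp14a (0.983), Znrf2 (0.977), Kntc1 (0.974) and Rpp14 (0.974). Spearman's rho was 0.879 to 0.976, and r was 0.915 to 0.985 without knockout 5 and control 5, the arrays farthest from the median for Psat1. None of the 5 passed the test between groups, with differences from 0.14 (Rpp14) to 0.53 (Knstrn). Within the set, r with Psat1 was 0.911 for Mthfd2, 0.893 for Shmt1, 0.892 for Mthfd1 and 0.822 for Shmt2. It was 0.722 for Phgdh, 0.715 for Mthfd1l, 0.527 for Aldh1l2, 0.418 for Psph and -0.34 for Aldh1l1. Without knockout 5 and control 5 it was 0.943 for Mthfd2, 0.822 for Mthfd1l, 0.766 for Shmt1, 0.765 for Mthfd1, 0.696 for Shmt2 and 0.638 for Aldh1l2. It was then 0.316 for Psph, 0.208 for Phgdh and 0.183 for Aldh1l1. The 5 genes outside the set were picked for their likeness among 22180, so no p is given.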

How the data were processed

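Total RNA (400 ng) was labelled with the Affymetrix WT Plus kit, per the labels' protocols. Each deposited value is a linear intensity, which the authors obtained using RMA in Affymetrix Expression Console (version 1.4.1.46), per the submitters' processing notes. They ran from 1.8 to 15278.7, with array medians of 45.8 to 48.1. RMA makes arrays alike in distribution, so a change common to most transcripts is hidden here. Precision is limited by the small number of arrays.

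Groups and replicate numbers came from sample titles. Log2 was taken of each intensity. Of 41345 probe sets, the 23521 with 1 symbol in the platform annotation were kept, and per gene the one with the highest mean, which left 22180 genes. Limma 3.58.1 in R 4.3.3 (lmFit, eBayes, group as the only term) was run over all of them and checked on simulated data. Pcyt1a and the partner pairs also had two-sided exact permutation tests. Detection calls were not used here.

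The 10 genes, the lists of further pathway genes, regulators and cell markers, and the covariates were chosen with earlier results of these data known. Named were the 10 genes, Pcyt1a, from each pathway list the called genes and the 4 with the smallest p, and the 5 genes most like Psat1. Others (Asns, Atf4, Ddit3, Trib3, all cell markers) were picked after their values were seen. Alternatives covered scaling, dim genes, probe sets, the variance model, weighted arrays, a block for the replicate number, covariates, a pseudocount of 16, omitted arrays and the threshold.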

Additional observations from a re-analysis of the deposited data

Results flagged for a closer look

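Shmt2 in knockout 5, at a log2 intensity of 7.81, lay far from the other knockouts, the nearest of which was at 8.91. This gap was 0.802 of the whole range of the group. Of 22 groups examined this way, for the 10 genes and Pcyt1a, it was the only such case, and chance alone flags about 1 group in 20.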

How the results depend on the processing

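The Pcyt1a difference kept its direction and stayed past the threshold under all 23 alternatives (-1.78 to -1.54). Shmt2 minus Shmt1 kept its direction under its 13 (0.86 to 0.98), which were chosen after the data were seen. Its exact permutation p in these, not adjusted over the 3 pairs, was at most 0.0286, without knockout 1 and control 5. Each of these p-values was the lower limit of the test for the arrays used. They show only that the groups did not overlap. Psat1 kept its direction under all 23 (1.44 to 2.10) and its call under 20. The exceptions were the ileum covariate and omission of knockout 2 or control 4. Against 1 of the 10 genes and 76 of all genes called, array weights gave 4 and 142 (Psat1, Psph, Shmt2 and Mthfd2), the proliferation covariate 3 and 134 (Psat1, Shmt2 and Aldh1l1), the ileum covariate 0 and 2, and a threshold of 0.1 gave 5 and 261. Omission of knockout 1 and control 5 together gave 186 of all genes. With 1 array left out, the counts ran from 0 to 3 and from 11 (without knockout 2) to 268 (without knockout 1). Shmt1 and Mthfd1 were reversed with the proliferation covariate, to -0.316 and -0.124. The other 7 genes kept their direction under all 23. Mthfd1l minus Mthfd1 reversed to 0.073 without knockout 1 and control 5 and ran from -0.136 to 0.06 with 1 array left out. Aldh1l2 minus Aldh1l1 reversed to -0.112 with a pseudocount of 16 and ran from -0.105 to 0.224. The cause of these changes was not tested. The replicate block gave 27 of all genes and left the call of Psat1 and its difference of 1.89 (SE 0.16, limma adjusted p = 0.00423). In the sample titles same-numbered arrays shared only a number. Over all genes, the correlation of their deviations from the group means was -0.135 to 0.125 over the 5 pairs. The block also lowered the SE of Phgdh from 0.19 to 0.11 (limma adjusted p = 0.0521, not called). All members lay above the dimmest 30% of genes.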
